A study of Homo sapiens with 8 samples.

Results

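The subject is the set of 9 genes that make, cut, carry and load the peptides shown by MHC class I molecules: HLA-B, HLA-C, HLA-E, B2M, TAP1, TAP2, TAPBP, PSMB8 and PSMB9. They were picked out by gene name in a table of 57905 rows, with the HLA, TAP and PSMB names taken from chromosome 6 alone. That rule uses no measured value, but the set was chosen with earlier results of these data known. The names occur on 10 rows, because TAP2 is listed under a main identifier and again under an overlapping one, so counts below are over the 9 genes and the extra TAP2 row is given beside its main row.

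The libraries came from DU145 and PC3, established human prostate cancer lines. DU145 was derived from a metastasis in the brain and PC3 from a metastasis in bone. The 4 groups, with 2 RNA sequencing libraries each, are DU145 with a TRIB1-overexpression lentivirus, DU145 with an empty lentivirus as its control, PC3 with the TRIB1 lentivirus, and PC3 with the empty lentivirus. Every group thus carries a lentivirus. TRIB1 encodes a pseudokinase that brings substrates to the ubiquitin ligase COP1, and the study asked which transcripts differ when it is raised. No source used here gives the promoter of the transgene, any selection or cloning of the cells, or whether replicates were separate cultures. The p-values below therefore reflect how far these libraries scatter, which can be technical scatter alone.

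In nearly all nucleated cells, proteasomes cut proteins into short peptides. The TAP1 and TAP2 transporter moves the peptides into the endoplasmic reticulum, tapasin (TAPBP) helps to load them, and the filled heavy chain with beta-2 microglobulin (B2M) travels to the cell surface, where T cells and NK cells read it. Interferons switch on these genes together through STAT and IRF factors, NF-kB and an enhanceosome that includes NLRC5 and RFX proteins, and prostate cancer cells are known for low class I levels.

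The promoters show the elements through which such control is known to act, so those of 6 members are printed first. RefSeq gives windows for 8 of the 9 members on GRCh38.p14, 10 windows in all, since PSMB8 and TAP1 have an additional start. The 250 bases before each first transcribed base were searched on both strands for GAAANNGAA (the core of the interferon-stimulated response element, ISRE), TTCNNNGAA (the gamma-activated site, GAS), GGGNNTTCC (an NF-kB site), CCAAT (bound by NF-Y) and TGACG (the core of the cAMP response element, CRE). Capitals mark every match, and where ISRE cores overlap they form a longer run of capitals. Each sequence is given 5′ to 3′ on the strand of its gene.
HLA-B, chr6:31357180-31357429, minus strand: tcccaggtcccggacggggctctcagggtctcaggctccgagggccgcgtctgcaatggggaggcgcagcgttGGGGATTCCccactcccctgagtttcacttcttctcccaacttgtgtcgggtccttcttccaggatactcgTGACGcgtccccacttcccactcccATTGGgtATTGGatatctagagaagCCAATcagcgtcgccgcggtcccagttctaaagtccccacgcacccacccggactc
HLA-C, chr6:31272093-31272342, minus strand: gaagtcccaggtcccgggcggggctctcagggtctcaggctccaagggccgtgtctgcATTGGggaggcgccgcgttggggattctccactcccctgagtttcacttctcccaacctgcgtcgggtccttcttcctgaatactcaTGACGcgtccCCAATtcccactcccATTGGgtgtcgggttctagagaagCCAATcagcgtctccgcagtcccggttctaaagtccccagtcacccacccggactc
B2M, chr15:44711267-44711516, plus strand: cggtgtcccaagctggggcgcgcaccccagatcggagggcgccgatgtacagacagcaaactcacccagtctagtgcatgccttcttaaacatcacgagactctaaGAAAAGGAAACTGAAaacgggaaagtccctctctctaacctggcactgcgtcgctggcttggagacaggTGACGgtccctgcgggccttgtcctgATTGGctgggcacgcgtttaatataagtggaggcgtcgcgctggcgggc
TAP1, chr6:32853705-32853954, minus strand: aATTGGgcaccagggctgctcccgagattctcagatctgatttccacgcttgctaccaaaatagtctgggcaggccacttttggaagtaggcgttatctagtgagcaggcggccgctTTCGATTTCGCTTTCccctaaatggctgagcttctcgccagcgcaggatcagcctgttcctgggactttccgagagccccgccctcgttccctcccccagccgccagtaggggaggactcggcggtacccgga
PSMB9, chr6:32853942-32854191, plus strand: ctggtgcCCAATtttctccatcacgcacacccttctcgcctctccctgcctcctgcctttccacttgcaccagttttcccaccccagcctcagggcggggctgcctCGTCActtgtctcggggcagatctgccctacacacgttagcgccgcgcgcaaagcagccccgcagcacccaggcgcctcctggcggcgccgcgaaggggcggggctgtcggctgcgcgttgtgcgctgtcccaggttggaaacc
TAPBP, chr6:33314079-33314328, minus strand: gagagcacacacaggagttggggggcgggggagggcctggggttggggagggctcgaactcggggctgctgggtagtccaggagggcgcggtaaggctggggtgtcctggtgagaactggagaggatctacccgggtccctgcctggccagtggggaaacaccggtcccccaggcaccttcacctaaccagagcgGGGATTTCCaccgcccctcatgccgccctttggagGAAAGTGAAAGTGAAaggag

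An ISRE core was found before 4 of the 8 members with a window (B2M, TAP1, TAP2 and TAPBP), against 6.88% of all 35116 windows in the same RefSeq table. The NF-kB motif was found before 3 members (HLA-B, TAPBP, and PSMB8 at its additional start), against 5.78% of all windows. The GAS motif was found before 2 (TAP1 and PSMB8, each at its additional start), against 6.57%. A member with an additional start was counted if either of its windows matched, while the shares over the RefSeq table are per window. CCAAT occurred before 5 members and 32.0% of all windows, and TGACG before 6 members and 21.2% of all windows. B2M, TAP1 and TAPBP each have 2 overlapping ISRE cores, at -144 to -130 in B2M, -133 to -119 in TAP1 and -20 to -6 in TAPBP, counted in bases from the first transcribed base. HLA-B and HLA-C share a layout of TGACG at -106 and -105 and CCAAT from -56, and HLA-B has a GGGNNTTCC match at -177 to -169, where HLA-C has a similar stretch that is no match to these letters. TAP1 and PSMB9 face away from each other with 488 bases between their first transcribed bases, and the TAP1 ISRE cores lie 355 to 369 bases before the start of PSMB9, outside the PSMB9 window. These are matches to fixed letters and describe the windows only, and a window without a match can still hold a variant of an element. The TAP1 window has gggactttcc and the B2M window has ggaaagtccc, which are close to the NF-kB letters on one strand or the other. HLA-B and HLA-C have tttcacttc, close to the ISRE core on the other strand. None of these stretches is counted.

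**Figure D1:**
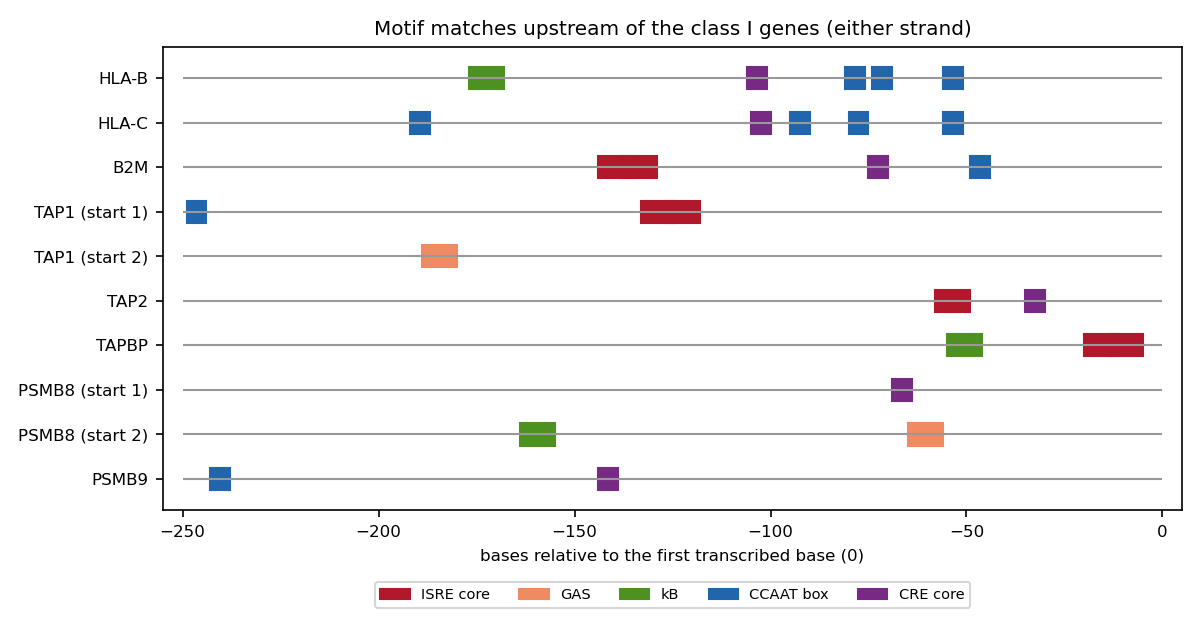
Motif matches on either strand in the 250 bases before the first transcribed base of 8 members (10 windows); the horizontal axis is the distance from that base and the colour gives the motif. The overlapping ISRE cores of B2M, TAP1 and TAPBP appear as the wide red blocks, and HLA-B carries the green NF-kB block at -177 to -169.

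TRIB1 itself stood at 69.4 and 62.3 TPM in the DU145 TRIB1 libraries, against 10.1 and 7.94 TPM in the DU145 controls, and at 241 and 245 TPM in the PC3 TRIB1 libraries, against 45.1 and 50.8 TPM in the PC3 controls, so the labels hold. TPM values are transcript levels per length, set to an equal sum in each library, so they hold no totals and the depth is unknown. Protein-coding genes held 85.7% of the TPM in the second DU145 TRIB1 library and 88.4% to 90.1% in the other 7, so that library stands apart, and results are given with and without it where its removal changes them. All 5 epithelial markers reached 1 TPM in every library, with sums of 1279 to 1396 TPM in DU145 TRIB1, 1389 to 1428 TPM in DU145 control, 2770 to 2815 TPM in PC3 TRIB1 and 1453 to 1505 TPM in PC3 control. The 12 leukocyte markers summed to 6.54 and 9.34 TPM in DU145 TRIB1, 7.37 and 9.12 TPM in DU145 control, 8.33 and 9.50 TPM in PC3 TRIB1 and 6.30 and 7.35 TPM in PC3 control, and PTPRC, which marks them as a class, was at or below 0.467 TPM throughout. The 5 fibroblast markers summed to 52.9 and 55.5 TPM in DU145 TRIB1, 64.4 and 68.8 TPM in DU145 control, 41.4 and 45.3 TPM in PC3 TRIB1 and 58.4 and 70.9 TPM in PC3 control. Nearly all of that sum was COL1A1, at 40.4 and 36.0 TPM in PC3 TRIB1, against 57.4 and 69.0 TPM in PC3 control. LUM went the other way, at 3.60 and 2.93 TPM in PC3 TRIB1, against 0.456 and 1.26 TPM in PC3 control, as did DCN, at 1.15 and 1.06 TPM in PC3 TRIB1, against 0.286 and 0.263 TPM in PC3 control. The part of the epithelial and fibroblast markers' differences in the results below was not tested. In bulk RNA, fewer cells of a kind and less RNA per cell cannot be told apart.

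In DU145, 7 of the 9 members fell with TRIB1 and none rose. All 9 stood lower in both TRIB1 libraries than in either control, with log2 changes from -1.06 for PSMB9 to -0.45 for B2M. The share of all genes that separate in this way was not computed, for this line or for PC3, so the separation is description only. The test was limma on log2(TPM + 1) over 25982 genes, all of the 9 members among them, and "rose" and "fell" mean a Benjamini-Hochberg adjusted p below 0.05 over all of these genes. Of all genes tested, 2.01% fell and 0.712% rose in this comparison, 522 and 185 genes, or 347 and 238 with median-of-ratios scaling. The members' median log2 change was -0.73, beside -0.04 for all genes, and at an unadjusted p below 0.05 the counts were 8 lower and 0 higher. Here and below, the share of all genes at the unadjusted threshold was not computed, so such counts cannot be set against the shares given, which are at adjusted p.

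The heavy chains bind the peptide, and HLA-B and HLA-C show it to T cells. HLA-B had 289 and 269 TPM in DU145 TRIB1 libraries, against 529 and 480.5 TPM in DU145 controls. Its mean was 279 ± 14 TPM with TRIB1 and 505 ± 34.0 TPM in the controls (SD, n = 2 each), the groups did not overlap, and HLA-B fell by 0.85 on the log2 scale (SE 0.088, adjusted p = 0.0132). HLA-C had 103 and 81.1 TPM in DU145 TRIB1 libraries, against 169 and 148 TPM in DU145 controls, and fell by 0.78 (SE 0.138, adjusted p = 0.0497), close to the threshold. HLA-E, which shows leader peptides of other class I chains to the NK cell receptor NKG2A, had 109 and 101 TPM in DU145 TRIB1 libraries, against 176 and 163 TPM in DU145 controls. It fell by 0.69 (SE 0.073, adjusted p = 0.0147). As fold changes of TPM + 1, TRIB1 over control, these are 0.55 for HLA-B, 0.58 for HLA-C and 0.62 for HLA-E.

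The heavy chains resemble each other, and no source used here says how reads that match several of them were counted, so their separate values are uncertain. Among 50-base stretches of the coding transcripts in GENCODE 29, 2.06% of those of HLA-B, 6.05% of HLA-C and 4.66% of HLA-E also occur in another class I chain. The sum of HLA-B, HLA-C and HLA-E, which does not depend on how reads were split among these 3, fell by 0.81 in DU145 (SE 0.072, adjusted p = 0.0082).

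B2M, the light chain that every class I molecule needs, was the most abundant member per length. It had 1561 and 1397 TPM in DU145 TRIB1 libraries, against 2071 and 1973 TPM in DU145 controls, and fell by 0.45 (SE 0.073, adjusted p = 0.0404). The fall of B2M was the smallest among the members. The log2 ratio of HLA-B to B2M was lower in DU145 TRIB1, at -2.41 ± 0.041, than in DU145 control, at -2.00 ± 0.048 (SD, n = 2 each).

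TAP1 and TAP2 form the channel that brings peptides into the endoplasmic reticulum. TAP1 had 58.7 and 49.3 TPM in DU145 TRIB1 libraries, against 90.3 and 89.3 TPM in DU145 controls, and fell by 0.73 (SE 0.092, adjusted p = 0.0231). TAP2 had 107.6 and 72.1 TPM in DU145 TRIB1 libraries, against 120.3 and 124 TPM in DU145 controls. Its groups did not overlap, but the TRIB1 libraries differed from each other by more than the distance of the higher from the controls, and the log2 change of -0.47 (95% interval -0.98 to 0.05, adjusted p = 0.329) did not pass. Without the second DU145 TRIB1 library the TAP2 change was -0.18. The extra TAP2 row held 2.49 and 2.88 TPM in DU145 TRIB1, against 4.60 and 7.25 TPM in DU145 control. Tapasin (TAPBP) holds the empty heavy chain next to the transporter. It had 114 and 114 TPM in DU145 TRIB1 libraries, against 226 and 214 TPM in DU145 controls, so the group means stood at 114 ± 0.162 and 220 ± 8.09 TPM (SD, n = 2 each). Its log2 change of -0.94 was the most negative after PSMB9, yet with an SE of 0.182 in the fit over both lines the adjusted p was 0.0635. That SE includes the wide spread of the PC3 controls: without the first or the second PC3 control library the adjusted p in DU145 was 0.012 or 0.0123.

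PSMB8 and PSMB9 are catalytic subunits of the immunoproteasome, which replace standard subunits and favour cuts that leave the peptide ends class I molecules bind. PSMB9 had 89.6 and 77.7 TPM in DU145 TRIB1 libraries, against 176 and 174.5 TPM in DU145 controls. It fell by 1.06 (SE 0.109, adjusted p = 0.0132) and was the only member in DU145 past a log2 change of -1, which the study also asked for, as did 0.804% of all genes tested. PSMB8 had 57.4 and 51.8 TPM in DU145 TRIB1 libraries, against 88.5 and 86.0 TPM in DU145 controls, and fell by 0.67 (SE 0.075, adjusted p = 0.0165). TAP1 and PSMB9 lie side by side and their listed intervals overlap, so without a known strand setting reads from the overlap cannot be told apart.

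The number of calls in DU145 rested on the spread estimated from all 8 libraries. Leaving out the first DU145 control gave 0 of 9, leaving out the second gave 2, leaving out the second DU145 TRIB1 library gave 3, leaving out either PC3 TRIB1 library gave 1, and leaving out any of the other 3 gave 6 or 7. With only the DU145 libraries in the fit it was 1, where 43 of all 23186 genes tested fell. Without that second TRIB1 library HLA-B (log2 change -0.80, adjusted p = 0.0567), HLA-C (-0.62, 0.124), HLA-E (-0.64, 0.0512) and B2M (-0.37, 0.112) did not pass. All 9 log2 changes stayed negative in every alternative run, those with other scalings included.

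**Figure D2:**
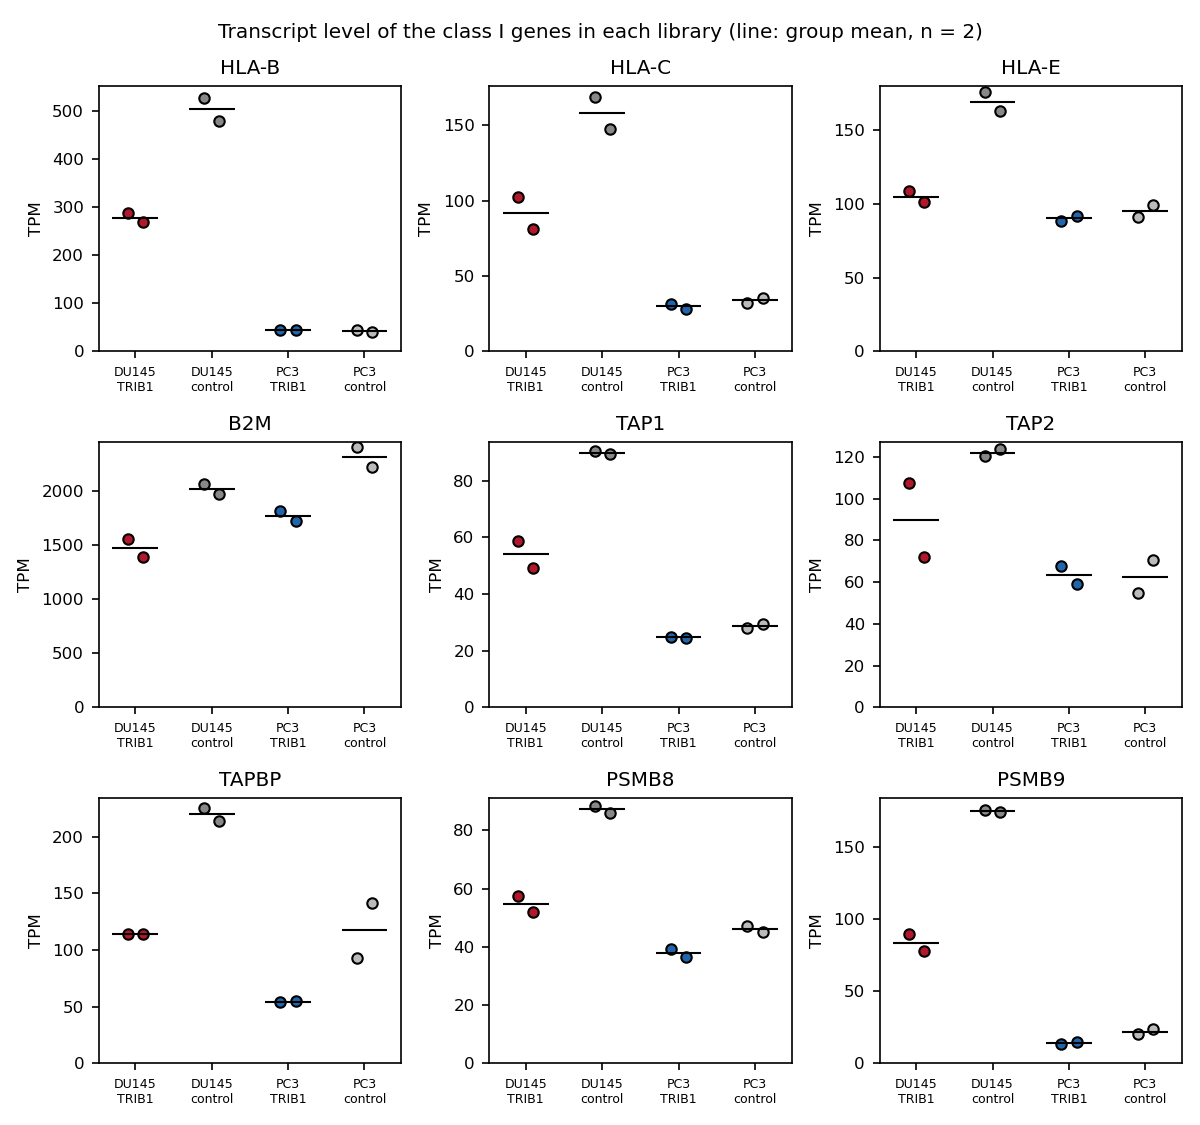
TPM of each member in every library, by group; points are libraries and lines are group means (n = 2), with linear axes from 0. In all 9 panels both DU145 TRIB1 points lie below both DU145 control points, while in PC3 the TRIB1 and control points of HLA-B, HLA-E and TAP2 overlap.

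In PC3, 3 of the 9 members fell with TRIB1 and none rose: TAPBP, PSMB9 and B2M. The other 6 did not pass, and HLA-B, HLA-E and TAP2 overlapped between the groups. Of all genes tested, 9.33% fell and 7.67% rose in this line. Among protein-coding genes 13.7% fell. Of 86 other protein-coding genes in the MHC interval of chromosome 6, with HLA genes and members left out, 27 fell (31.4%). PSMB9 lies in that interval, while B2M and TAPBP do not. Whether the members' falls are part of the regional share was not tested. The median log2 change of the members was -0.21, beside -0.01 for all genes, and at an unadjusted p below 0.05 the counts were 4 lower and 0 higher.

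The heavy chains in PC3 stood near their control levels. HLA-B had 44.3 and 44.5 TPM in PC3 TRIB1 libraries, against 45.4 and 39.4 TPM in PC3 controls, a log2 change of 0.07 (95% interval -0.15 to 0.28). HLA-C had 31.7 and 28.1 TPM in PC3 TRIB1 libraries, against 32.1 and 35.3 TPM in PC3 controls, a change of -0.17 (-0.51 to 0.17). HLA-E had 88.7 and 91.9 TPM in PC3 TRIB1 libraries, against 90.9 and 99.4 TPM in PC3 controls, a change of -0.07 (-0.25 to 0.11). Adjusted p-values were 0.678, 0.478 and 0.573, and the summed heavy chains changed by -0.06 (adjusted p = 0.671).

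B2M had 1817 and 1727 TPM in PC3 TRIB1 libraries, against 2407 and 2223 TPM in PC3 controls, and fell by 0.38 (SE 0.073, adjusted p = 0.0207). The light chain therefore fell relative to the heavy chains in this line. The log2 ratio of HLA-B to B2M was higher in PC3 TRIB1, at -5.32 ± 0.058, than in PC3 control, at -5.77 ± 0.065 (SD, n = 2 each). That is the opposite order to DU145.

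TAPBP had 54.1 and 54.9 TPM in PC3 TRIB1 libraries, against 93.2 and 142 TPM in PC3 controls. It fell by 1.06 (SE 0.182, adjusted p = 0.0151), the largest change of a member in PC3 and the only one past a log2 change of -1, as were 2.67% of all genes tested. The controls differed widely from each other, and both lay above both TRIB1 libraries. TAP1 had 24.9 and 24.5 TPM in PC3 TRIB1 libraries, against 28.0 and 29.3 TPM in PC3 controls, which do not overlap, but the log2 change of -0.21 did not pass (adjusted p = 0.199). TAP2 had 67.5 and 58.9 TPM in PC3 TRIB1 libraries, against 54.7 and 70.4 TPM in PC3 controls (log2 change 0.02, 95% interval -0.49 to 0.54). Its extra row held 1.64 and 0.635 TPM in PC3 TRIB1, against 1.91 and 2.82 TPM in PC3 control.

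PSMB9 had 13.7 and 14.9 TPM in PC3 TRIB1 libraries, against 20.2 and 23.9 TPM in PC3 controls, and fell by 0.59 (SE 0.109, adjusted p = 0.0194). PSMB8 had 39.4 and 36.6 TPM in PC3 TRIB1 libraries, against 47.0 and 45.2 TPM in PC3 controls, without overlap, and its change of -0.27 (95% interval -0.46 to -0.09) had an adjusted p of 0.0605. No member passed in PC3 without either of the DU145 controls or either of the PC3 TRIB1 libraries, 2 passed without either PC3 control, and 4 without either DU145 TRIB1 library.

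**Figure D3:**
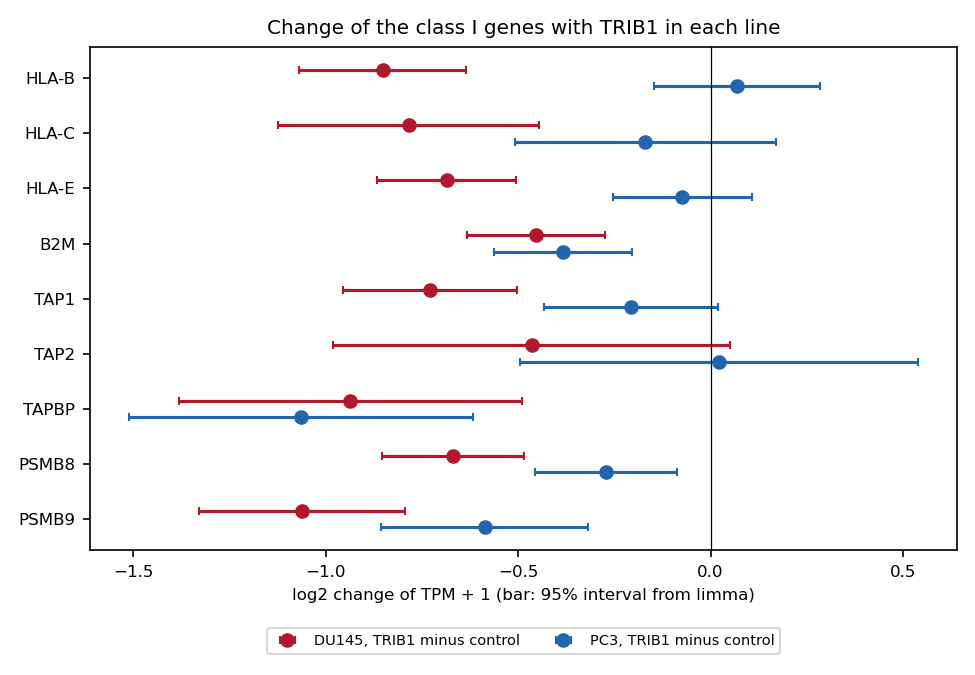
Fitted log2 change of TPM + 1, TRIB1 minus control, for each member in DU145 (red) and PC3 (blue); bars are 95% intervals from limma. The DU145 points lie between -1.06 and -0.45, while in PC3 the heavy chains sit near 0 and TAPBP at -1.06.

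The immunoproteasome subunits take the place of named standard subunits, PSMB9 that of PSMB6 and PSMB8 that of PSMB5, so their ratios set each against a partner in the same library. The PSMB9 to PSMB6 ratio was 0.242 and 0.259 in DU145 TRIB1 libraries, against 0.598 and 0.569 in DU145 controls. In PC3 it was 0.0666 and 0.0716 in TRIB1 libraries, against 0.103 and 0.130 in controls. The PSMB8 to PSMB5 ratio was 0.697 and 0.712 in DU145 TRIB1 libraries, against 1.14 and 1.11 in DU145 controls, so PSMB8 stood above PSMB5 per length only in the DU145 controls among the 4 groups. In PC3 it was 0.227 and 0.207 in TRIB1 libraries, against 0.269 and 0.278 in controls. Both ratios were lower with TRIB1 in each line without overlap, with log2 differences of -1.22 and -0.68 in DU145 and -0.74 and -0.33 in PC3. The remaining immunoproteasome pair, PSMB10 to PSMB7, did not share this in DU145: its ratio was 0.0776 and 0.0591 in DU145 TRIB1 libraries, against 0.0554 and 0.0557 in DU145 controls, a log2 difference of 0.29. In PC3 that ratio was 0.114 and 0.124 in TRIB1 libraries, against 0.137 and 0.139 in controls, a log2 difference of -0.21. With 2 libraries against 2, an exact permutation test cannot give a two-sided p below 0.333, so none is given for these ratios. PSMB5 and PSMB6 themselves changed by -0.00 and 0.15 in DU145 and by 0.06 and 0.12 in PC3, none past the test.

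**Figure D4:**
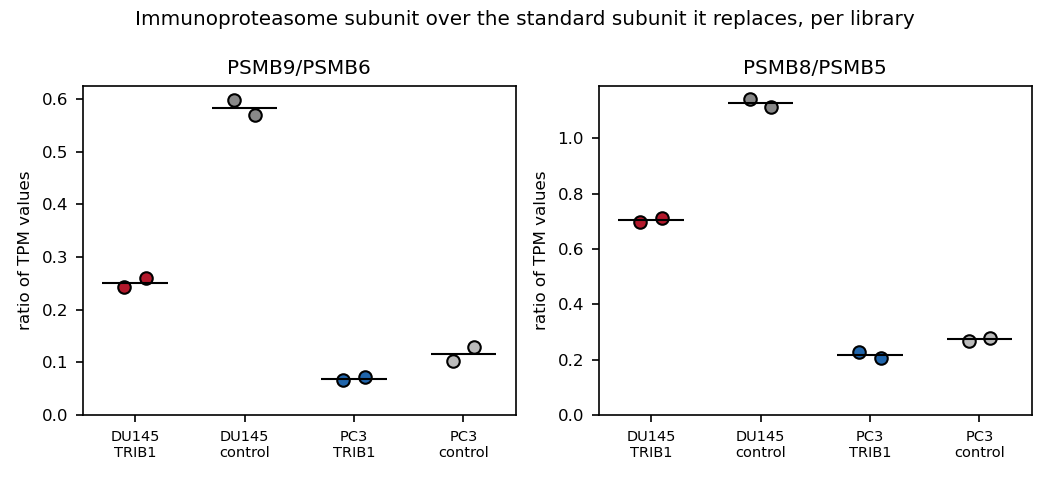
Ratio of the TPM of PSMB9 to PSMB6 and of PSMB8 to PSMB5 in each library; points are libraries, lines are group means (n = 2), and axes are linear from 0. Both ratios are lower with TRIB1 in each line, and the PC3 values lie below the DU145 values throughout.

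The change in DU145 was set against the change in PC3 by the difference of the 2 changes in the same fit. It passed for 2 of the 9 members, both lower in DU145, where 5.36% of all genes tested passed in that direction and 4.01% in the other. HLA-B changed by -0.85 in DU145 and 0.07 in PC3, a difference of -0.92 (SE 0.124, adjusted p = 0.0132). HLA-E changed by -0.69 in DU145 and -0.07 in PC3, a difference of -0.61 (SE 0.104, adjusted p = 0.0237). For the summed heavy chains the difference was -0.75 (adjusted p = 0.0134). At an unadjusted p below 0.05 the difference was lower for 6 members and higher for 0. HLA-C differed by -0.62 (95% interval -1.09 to -0.14, adjusted p = 0.113), TAP1 by -0.52 (-0.84 to -0.20, adjusted p = 0.0638), PSMB8 by -0.40 (adjusted p = 0.0758), PSMB9 by -0.47 (adjusted p = 0.122) and TAP2 by -0.49 (adjusted p = 0.373). B2M at -0.07 (-0.32 to 0.19) and TAPBP at 0.13 (-0.50 to 0.76) had similar estimated changes in the lines, with intervals that leave room for sizeable differences in TAPBP. The HLA-B difference did not pass without the first DU145 control (adjusted p = 0.0518) or when either PC3 TRIB1 library was left out (0.0547 for the first, 0.0545 for the second). The HLA-E difference did not pass without the first or second DU145 control (0.0767 and 0.0531), the second DU145 TRIB1 library (0.0614), or the first or second PC3 TRIB1 library (0.0683 and 0.0785).

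With the empty virus, 8 of the 9 members were lower in PC3 than in DU145 and none was higher, where 28.4% of all genes tested were lower and 18.6% higher. The median log2 difference of the members, PC3 control minus DU145 control, was -0.96, beside -0.18 for all genes. Rescaling the libraries by median-of-ratios factors moved the median of all genes to 0 and the calls over all genes to 5683 lower and 6175 higher, against 7376 lower and 4840 higher without it. HLA-B differed the most, with 45.4 and 39.4 TPM in PC3 controls, against 529 and 480.5 TPM in DU145 controls, a log2 difference of -3.54 (SE 0.088). PSMB9 followed at -2.94, HLA-C at -2.19 and TAP1 at -1.62, and these 4 were past a log2 difference of -1. TAP2 (-0.96), TAPBP (-0.93), PSMB8 (-0.91) and HLA-E (-0.83) were lower by less, with adjusted p-values of 0.0116 or smaller. B2M had 2407 and 2223 TPM in PC3 controls, against 2071 and 1973 TPM in DU145 controls, a difference of 0.19 that did not pass (adjusted p = 0.0748) but did once the libraries were rescaled. At an unadjusted p below 0.05 the counts were 8 lower and 1 higher, the last being B2M. The order of the groups was thus DU145 control, DU145 TRIB1 and then PC3 for HLA-B, HLA-C, TAP1 and PSMB9, and the drop with TRIB1 in DU145 left each of them above the PC3 controls. For HLA-E the DU145 TRIB1 libraries, at 109 and 101 TPM, came close to the PC3 controls at 90.9 and 99.4 TPM.

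Across the 8 libraries TAP1 followed the mean of the 9 members most closely. The root mean square distance of its centred log2(TPM + 1) values from the members' mean profile was 0.047, while HLA-B (0.904), B2M (0.776) and PSMB9 (0.717) were farthest, HLA-B and PSMB9 with control levels farther apart between the lines and B2M with a difference of only 0.19. Among 11911 other protein-coding genes with at least 5 TPM in a group, those nearest to that mean profile were ABL1 (0.122), TMEM88 (0.139), HSD3B7 (0.139), PNRC1 (0.141), ZFAND5 (0.144) and ASB3 (0.144), of which PNRC1 alone lies on chromosome 6. ABL1, a tyrosine kinase, changed by -0.75 in DU145 and -0.43 in PC3 and differed by -1.65 between the controls. All 6 of these genes lie nearer to the mean profile than any member except TAP1, the next member being HLA-C at 0.300. Each member enters that mean, and the 6 genes do not. The measure describes levels over 8 libraries of 2 lines and says nothing of shared function.

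The remaining genes of the pathway were counted from a list of 11, of which 10 passed the filter on low values and HLA-G did not. In DU145 none of the 10 passed the test, while 6 were lower and 0 higher at an unadjusted p below 0.05 in limma, with a median log2 change of -0.33. In PC3, 3 of the 10 fell and none rose (median -0.31), and all 3 are chaperones of the endoplasmic reticulum that help heavy chains to fold and load. PDIA3 (ERp57) had 261 and 239 TPM in PC3 TRIB1 libraries, against 395 and 403 TPM in PC3 controls, and fell by 0.67 (adjusted p = 0.0027). CANX fell by 0.38 (adjusted p = 0.0192) and CALR by 0.32 (adjusted p = 0.0212), while in DU145 the changes of PDIA3, CANX and CALR were -0.11, 0.02 and -0.19. The difference between the lines passed for PDIA3 (0.56, adjusted p = 0.0174) and, in the other direction, for PSME2, an activator cap of the proteasome (-0.89, adjusted p = 0.0252). With each of the 8 libraries left out in turn, the PC3 falls passed in 8 fits for PDIA3, 4 for CANX (adjusted p up to 0.102) and 2 for CALR (up to 0.116), and the differences between the lines in 6 for PDIA3 and 2 for PSME2 (up to 0.0925). The 3 falls among 10 genes in PC3 stand beside 9.33% of all genes tested. Between the controls HLA-F (-2.70), TAPBPL (-2.56) and ERAP2 (-1.42) were lower in PC3 than in DU145, on the log2 scale, and PSME1 (1.1), PDIA3 (0.78), PSME2 (0.75), CALR (0.64) and PSMB10 (0.50) were higher. These 3 lower and 5 higher of 10 stand beside 28.4% lower and 18.6% higher of all genes tested. The 16 genes listed as standard proteasome are PSMA and PSMB subunits with PSME3 and POMP. Their median log2 change was 0.02 in DU145, with none past the test (2 lower and 1 higher at an unadjusted p below 0.05 in limma). In PC3 the median was 0.07, with 2 lower and 1 higher of 16, shares near the 9.33% and 7.67% of all genes tested.

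Of 22 genes known to control class I transcription, 4 fell in DU145 and none rose, with a median log2 change of -0.36. Over all genes tested 2.01% fell in DU145. In PC3, 2 of the 22 fell (9.09%) and 4 rose, with a median of -0.05, beside 9.33% of all genes that fell and 7.67% that rose, so the share that fell is that of all genes.

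JAK1 (a kinase that activates STAT proteins at interferon receptors), STAT2 and NFKB1 fell in DU145 and rose in PC3. JAK1 had 46.7 and 43.0 TPM in DU145 TRIB1 libraries, against 68.6 and 61.5 TPM in DU145 controls, and 47.6 and 48.2 TPM in PC3 TRIB1 libraries, against 34.0 and 34.1 TPM in PC3 controls. Its log2 change was -0.53 in DU145 (adjusted p = 0.0317) and 0.48 in PC3 (adjusted p = 0.0125). STAT2 changed by -0.60 (adjusted p = 0.0275) and 0.53 (adjusted p = 0.0112), and NFKB1, an NF-kB subunit, by -0.64 (adjusted p = 0.0256) and 0.40 (adjusted p = 0.029). The differences between the lines were -1.01 for JAK1 (adjusted p = 0.008), -1.12 for STAT2 (0.0071), -1.04 for NFKB1 (0.00907) and -1.22 for IFNGR1 (0.0117), a chain of the interferon gamma receptor that rose in PC3 by 0.64 (adjusted p = 0.0161). These 4 differences passed without each of the 8 libraries in turn. IFNAR1, a chain of the type I interferon receptor, fell in DU145 by 0.61 (adjusted p = 0.0264). In PC3, IFNGR2 and TYK2, a receptor chain and a kinase of the same pathways, fell by 0.44 (adjusted p = 0.0187) and 0.71 (adjusted p = 0.0242). Of the 8 fits that each left out a library, the falls in DU145 passed in 1 for JAK1, 1 for STAT2, 3 for NFKB1 and 2 for IFNAR1. In PC3 the changes passed in 6 of these fits for JAK1, 7 for STAT2, 2 for NFKB1, 5 for IFNGR1, 6 for IFNGR2 (adjusted p up to 0.0932) and 2 for TYK2 (up to 0.131).

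NLRC5, the activator of class I promoters, had 15.1 and 20.3 TPM in DU145 TRIB1 libraries, against 20.3 and 18.1 TPM in DU145 controls, which overlap (adjusted p = 0.825). It had 2.89 and 4.29 TPM in PC3 TRIB1 libraries, against 3.78 and 4.07 TPM in PC3 controls. Between the controls 11 of the 22 were lower in PC3 than in DU145 and 6 were higher, where 28.4% of all genes tested were lower and 18.6% higher. NLRC5 and RFX5, which bind together at these promoters, differed by -2.04 and -2.02 on the log2 scale (adjusted p = 0.000495 and 6.43e-05). IFNAR2 (-1.75), NFYB (-1.25), JAK1 (-0.91), NFKB1 (-0.70), STAT2 (-0.68), IFNGR1 (-0.61), IFNAR1 (-0.56), IRF2 (-0.40) and RELA (-0.35) were also lower. IRF9 (1.17), NFYA (0.96), SOCS1 (0.93), JAK2 (0.91), RFXANK (0.68) and NFYC (0.33) were higher. At an unadjusted p below 0.05, 13 of the 22 were lower and 0 higher in DU145, against 2 and 5 in PC3, with no share of all genes computed at that threshold. Of the 22, 1 fell in DU145 when its second TRIB1 library was left out, 2 when its second control was, and 0 when its first control or any PC3 TRIB1 library was left out. In PC3 the number that rose was 0 when its first TRIB1 library was left out, 1 when its second was, and 2 when its second control was.

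**Figure D5:**
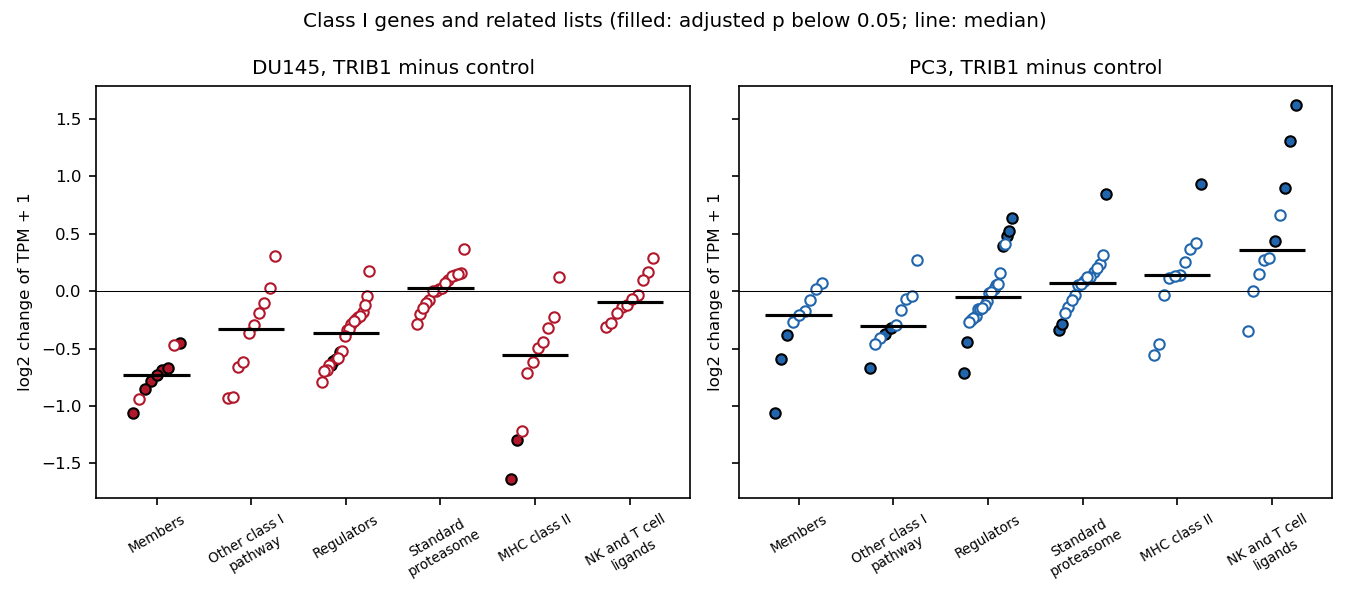
Fitted log2 change of TPM + 1 with TRIB1 for the members and for related lists in DU145 (left) and PC3 (right); each point is a gene, filled where its adjusted p is below 0.05, and lines are medians. The medians of the members and of the regulators are -0.73 and -0.36 in DU145 and -0.21 and -0.05 in PC3, while the standard proteasome list lies at 0.02 and 0.07.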

How the data were processed

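RNA sequencing libraries of DU145 and PC3 cells (4 groups of 2) were analysed from 1 table of TPM values deposited by the authors, in which each of the 8 columns sums to 1000000. TopHat2 2.0.14, HTSeq, edgeR, DESeq and hg38 appear in the submitters' processing notes. No source used here gives the step that made the TPM values, the annotation or the strand setting. The table and GENCODE 29 on GRCh38 have 52338 identifiers in common, and the listed start is equal for 365 of them (0.697%), so the table's own intervals are of a build that is not stated, and no coordinate was converted. TPM keeps no library totals, so no counting interval was computed. Values listed at 0 are reported as such.

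Groups and replicate numbers were read from the sample titles. Log2(TPM + 1), which understates the change of low genes, was tested in R 4.3.3 with limma 3.58.1, using its trend of variance on mean level, on 25982 genes with a group mean of at least 1 TPM. All 8 libraries entered 1 fit of 4 group means (4 residual and 1.89 prior degrees of freedom), with Benjamini-Hochberg adjustment over all genes tested and a threshold of 0.05. The study's added cutoff is an absolute log2 change over 1. The procedure was tested on simulated data. Promoter windows came from RefSeq on GRCh38.p14. Tables and figures were made with Python 3.11.15, pandas 2.3.3 and matplotlib 3.10.9.

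The members and lists were chosen with earlier results of these data known. Some genes of the lists are not reported here and are left out of their counts. Named are the 9 members, each gene of the lists of other pathway genes and of regulators that passed, PSMB5 and PSMB6, TRIB1, and the 6 genes with the nearest profile. The PSMB10 to PSMB7 ratio, the fibroblast markers named, NLRC5's values under TRIB1, the genes of the class II and receptor ligand lists and the rows of the MHC interval were added after their values were seen. Alternatives were other pseudocounts (0.1 and 0.5), filters, scalings, variance models, each line alone, the replicate number as a block, and each library left out.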

Additional observations from a re-analysis of the deposited data

Results flagged for a closer look

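HLA-B and HLA-E were singled out because the change with TRIB1 differed between the lines by a test of the difference itself. The change in DU145 minus the change in PC3 was -0.92 for HLA-B and -0.61 for HLA-E on the log2 scale, with adjusted p-values of 0.0132 and 0.0237 in limma. Both genes were lower in each DU145 TRIB1 library than in either DU145 control and overlapped between the groups in PC3.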

How the results depend on the processing

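No log2 change of a member in DU145 changed its sign under any alternative run, but calls depended on the spread estimate. The calls over all genes did so too. In DU145, 522 genes fell in the main fit, 43 with its libraries alone, 348 with no mean-variance trend and 10 with a replicate block. In PC3, 2423 fell in the main fit and 1138 with its libraries alone. The change was lower in DU145 than in PC3 for 1393 genes, against 1983 with protein-coding genes alone, 1111 with no trend and 55 with the block. Members that fell in DU145 numbered 7, against 1 in a fit of the DU145 libraries alone, 4 with no mean-variance trend, 0 with a replicate block, and 0 to 7 with each library left out. Where a library is left out, the lone library of its group is assumed to vary like the other groups. Those that fell in PC3 numbered 3, against 1 in the PC3 libraries alone and 0 to 4 with each library left out. Those with a lower change in DU145 than in PC3 numbered 2, against 5 with protein-coding genes alone, 1 with no trend, 0 with the replicate block and 0 to 3 with each library left out. In the control comparison, B2M became the 1 member higher in PC3 under median-of-ratios, upper-quartile and protein-coding scaling and the replicate block. The difference for the summed heavy chains was -0.75 (-0.82 to -0.68 with each library left out) but lost its call without either PC3 TRIB1 library (adjusted p = 0.0569 and 0.0556). Deviations of same-numbered libraries correlated at -0.04 in DU145 and -0.01 in PC3 over genes, which shows no pairing by number. With so few libraries per group, these correlations cannot settle whether same-numbered libraries share a culture or a batch. Signs turned for B2M between the lines without the second DU145 TRIB1 library (0.012, range over left-out libraries -0.15 to 0.012), for TAP2 in PC3 without the first control (-0.16) or first TRIB1 library (-0.075, range -0.16 to 0.20), and without the second PC3 control for HLA-B in PC3 (-0.033, range -0.033 to 0.17) and TAPBP between the lines (-0.17, range -0.17 to 0.43), none past the test with the turned sign. Where not stated otherwise, the cause was not tested. Unknown depth limits what can be said of precision.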

Other observations

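MHC class II genes, which show peptides from outside the cell and which epithelial cells also make under interferon, were counted as a neighbouring list of 10. Their summed level was 98.0 and 105 TPM in DU145 TRIB1 libraries, against 179 and 191 TPM in DU145 controls, and 12.1 and 15.7 TPM in PC3 TRIB1 libraries, against 11.97 and 12.5 TPM in PC3 controls. In DU145, 2 of the 10 fell and none rose, where 2.01% of all genes tested fell. CD74, the chaperone of class II molecules, had 18.6 and 15.9 TPM in DU145 TRIB1, against 56.0 and 55.3 TPM in DU145 control, and fell by 1.64 (limma, adjusted p = 0.0175). HLA-DPA1, a class II alpha chain, had 7.89 and 10.4 TPM in DU145 TRIB1, against 24.7 and 22.8 TPM in DU145 control, and fell by 1.30 (adjusted p = 0.0207). In PC3, 1 of the 10 rose (HLA-DQB1, by 0.94, adjusted p = 0.0164) and none fell, a share near the 7.67% of all genes that rose. HLA-DQB1 was low in this line, at 1.85 and 1.18 TPM in PC3 TRIB1, against 0.246 and 0.356 TPM in PC3 control. Of the fits that left out a library, CD74 passed in 2 of 8, HLA-DPA1 in 4 of 8 and HLA-DQB1 in 4 of 8.

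Of 10 ligands on the cell surface that NK and T cell receptors read, 4 rose and none fell in PC3 with TRIB1, where 7.67% of all genes tested rose. CD274 (PD-L1), which holds back T cells, had 9.27 and 10.1 TPM in PC3 TRIB1, against 2.95 and 3.68 TPM in PC3 control, and rose by 1.31 (adjusted p = 0.0047). RAET1L and ULBP2, ligands of the activating receptor NKG2D, rose by 1.62 (adjusted p = 0.0073) and 0.90 (adjusted p = 0.0093), and PVR, which DNAM-1 and TIGIT bind, rose by 0.44 (adjusted p = 0.0055). In DU145 none of the 10 passed in limma (1 lower and 0 higher at an unadjusted p below 0.05). RAET1L was near 0 there, at 0.132 and 0.171 TPM in DU145 TRIB1, against 0.375 and 0.0567 TPM in DU145 control. A fall could hardly show at that level. In PC3 it had 7.01 and 5.89 TPM with TRIB1, against 1.25 and 1.58 TPM in control. The difference between the lines passed for PVR (-0.71, adjusted p = 0.0071), RAET1L (-1.69, adjusted p = 0.0274) and CD274 (-1.02, adjusted p = 0.0377). With each library left out in turn, these differences passed in 8 of 8 fits for PVR, 3 for RAET1L (adjusted p up to 0.0659) and 1 for CD274 (up to 0.118), and the rises in PC3 in 8 for CD274, RAET1L and PVR and 7 for ULBP2.

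Most members lie in the MHC region of chromosome 6. Among 86 other protein-coding genes of the interval, with HLA genes and members left out, 27 fell (31.4%) and 2 rose in PC3 with TRIB1, beside 13.7% of all protein-coding genes tested and 10.9% of those elsewhere on chromosome 6 that fell. In DU145, 3 of the 86 fell (3.49%), beside 3.09% of all protein-coding genes and 4.89% elsewhere on the chromosome. The median log2 change of these 86 genes was -0.29 in PC3 and -0.10 in DU145.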
